A study of Homo sapiens with 5 samples.

Results

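The regions described here are 1083 H3K27me3 domains of HT1376 cells that EZH2 occupied in the vehicle condition and that were no longer called as H3K27me3 after treatment with the EZH2 inhibitor CPI-0209. HT1376 cells are a long-established line from a human bladder carcinoma. Cells received 250 nM CPI-0209 or the vehicle DMSO for 8 days according to the treatment label, while the extraction protocol names both 4 and 8 days, and chromatin immunoprecipitation with sequencing (ChIP-seq) was run against EZH2 and against H3K27me3. This gave 4 groups of 1 library each (H3K27me3 CPI-0209, EZH2 CPI-0209, H3K27me3 DMSO and EZH2 DMSO), and 1 input library of the labels was not used here. Every library is a list of called intervals on hg38 without scores or read counts. Depth is therefore unknown, only the presence or absence of a call can be read, and a missing call does not show that the protein or the mark was absent. With 1 library a group, no difference between CPI-0209 and DMSO had a replicate check and none was tested. Limits in brackets after a share are exact (Clopper-Pearson) 95% binomial limits, which cover counting error within these libraries only, and neighbouring domains are not independent.

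The domains were selected on 3 of the libraries, by merging the intervals of each list and taking H3K27me3 DMSO domains under 60 kb that overlapped an EZH2 DMSO domain by at least 1 bp and overlapped no H3K27me3 CPI-0209 domain. Such a domain is called lost below, as a name for this pattern of calls. Of 21589 H3K27me3 DMSO domains, 12724 had no H3K27me3 CPI-0209 domain, a background of 58.9%. Among the 7421 domains under 60 kb with EZH2, 1083 (14.6%, 13.8 to 15.4) had none, against 11636 of 13487 (86.3%, 85.7 to 86.9) without EZH2. These shares follow from the calls used for selection and are a description. The other EZH2-bound domains under 60 kb comprised 4094 that overlapped 1 H3K27me3 CPI-0209 domain, called kept in 1 piece, and 2244 that overlapped 2 or more, called broken into pieces.

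Polycomb repressive complex 2 (PRC2) methylates lysine 27 of histone H3, and EZH2 is its enzyme. The trimethylated form, H3K27me3, marks repressed chromatin, is bound by PRC2 itself through the EED subunit, and so helps the complex spread and copy the mark. In mammals PRC2 gathers at unmethylated CpG-rich promoters, many of them of developmental genes, and wide domains grow outward from such sites. An inhibitor of the catalytic site blocks methylation without by itself removing the protein from chromatin, and existing mark is then diluted as cells divide.

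The promoters inside the lost domains ranged widely in CpG content, and the ends of this range are shown because starts with and without an EZH2 call differed in it. Below are the 250 bases before the first transcribed base from RefSeq (GRCh38.p14, the assembly of hg38), with each CpG in capitals. They are the 4 highest and the 4 lowest in observed over expected CpG of the named genes with a start inside a lost domain, and OR2Y1, with the same ratio as FCRLA, is not printed. The first 4 are ADGRB3, a brain adhesion receptor (chr6:68635032-68635281, plus strand), the zinc finger gene ZNF879 (chr5:179023554-179023803, plus strand), CNKSR2, a scaffold of synaptic Ras signalling (chrX:21374168-21374417, plus strand), and TLCD4-RWDD3, a readthrough gene (chr1:95117673-95117922, plus strand).
ADGRB3: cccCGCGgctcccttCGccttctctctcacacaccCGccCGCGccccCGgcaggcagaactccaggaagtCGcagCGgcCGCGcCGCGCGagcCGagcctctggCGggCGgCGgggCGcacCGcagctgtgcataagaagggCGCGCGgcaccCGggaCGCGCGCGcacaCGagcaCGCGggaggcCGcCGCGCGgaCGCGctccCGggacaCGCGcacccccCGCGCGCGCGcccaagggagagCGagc
ZNF879: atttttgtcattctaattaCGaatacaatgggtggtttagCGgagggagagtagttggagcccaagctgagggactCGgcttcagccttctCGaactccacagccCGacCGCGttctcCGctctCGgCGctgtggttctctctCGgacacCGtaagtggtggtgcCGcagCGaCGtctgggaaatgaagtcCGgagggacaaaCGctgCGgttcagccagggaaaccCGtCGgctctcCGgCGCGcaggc
CNKSR2: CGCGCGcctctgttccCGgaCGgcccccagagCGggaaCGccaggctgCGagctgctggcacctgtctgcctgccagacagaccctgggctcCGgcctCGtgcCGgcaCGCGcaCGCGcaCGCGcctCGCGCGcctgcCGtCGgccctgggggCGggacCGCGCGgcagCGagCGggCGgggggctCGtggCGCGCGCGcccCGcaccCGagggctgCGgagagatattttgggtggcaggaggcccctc
TLCD4-RWDD3: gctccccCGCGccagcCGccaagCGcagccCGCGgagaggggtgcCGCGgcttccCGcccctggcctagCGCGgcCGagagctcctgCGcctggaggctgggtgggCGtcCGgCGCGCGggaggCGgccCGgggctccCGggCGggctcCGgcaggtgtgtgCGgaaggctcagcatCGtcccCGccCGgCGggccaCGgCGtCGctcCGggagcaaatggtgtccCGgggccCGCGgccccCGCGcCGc
The other 4 belong to CYP4F11, a fatty acid hydroxylase (chr19:15934530-15934779, minus strand), FCRLB and FCRLA, Fc receptor-like genes of B cells (chr1:161721294-161721543 and chr1:161706979-161707228, plus strand), and INHBA, the activin A subunit (chr7:41703091-41703340, minus strand).
CYP4F11: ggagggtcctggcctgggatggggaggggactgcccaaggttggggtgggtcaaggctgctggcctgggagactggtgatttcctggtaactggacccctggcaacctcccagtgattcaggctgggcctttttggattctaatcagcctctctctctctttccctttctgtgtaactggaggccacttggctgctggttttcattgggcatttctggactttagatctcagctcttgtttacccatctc
FCRLB: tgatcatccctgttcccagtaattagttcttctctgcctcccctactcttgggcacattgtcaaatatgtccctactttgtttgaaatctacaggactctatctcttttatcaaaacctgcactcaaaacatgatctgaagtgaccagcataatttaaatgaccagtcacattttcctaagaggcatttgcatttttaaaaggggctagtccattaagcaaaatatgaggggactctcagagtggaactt
INHBA: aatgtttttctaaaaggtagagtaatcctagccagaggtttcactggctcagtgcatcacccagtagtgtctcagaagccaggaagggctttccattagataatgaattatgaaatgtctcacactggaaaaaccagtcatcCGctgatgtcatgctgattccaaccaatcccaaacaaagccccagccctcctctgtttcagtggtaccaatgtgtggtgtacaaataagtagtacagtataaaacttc
FCRLA: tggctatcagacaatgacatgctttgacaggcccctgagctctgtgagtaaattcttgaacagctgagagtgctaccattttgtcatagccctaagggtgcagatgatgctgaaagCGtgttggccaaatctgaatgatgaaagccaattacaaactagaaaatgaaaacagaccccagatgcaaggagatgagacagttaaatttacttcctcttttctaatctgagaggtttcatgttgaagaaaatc
The printed stretches hold 46 CpG at ADGRB3, 23 at ZNF879, 37 at CNKSR2 and 38 at TLCD4-RWDD3, against 0 at CYP4F11, 0 at FCRLB, 1 at INHBA and 1 at FCRLA. At the first 4 starts EZH2 was called in CPI-0209, and in DMSO at ADGRB3 and ZNF879. At INHBA and FCRLA the start carried no EZH2 call in either library, while CYP4F11 and FCRLB had calls in both.

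Lost domains were narrow and covered 11.5 Mb in all. Their width ranged from 0.4 to 58.6 kb with a median of 8.8 kb, against medians of 12.2 kb for domains kept in 1 piece and 30.6 kb for those broken into pieces. Lost domains without EZH2 had a median of 6.2 kb. The share of EZH2-bound domains that were lost was 45.1% (40 to 50.3) at widths up to 4 kb, 25.3% at 4 to 8 kb, 17.6% (16.1 to 19.3) at 8 to 16 kb and 5.48% (4.75 to 6.29) at 16 to 60 kb. Since 1 shared base pair counts as an overlap, a wide domain has more chances to be called kept, and width is part of what the rule measures. At the limit of the rule, the widest domain inside it measured 58.6 kb and the next 49.6 kb. Only 2 EZH2-bound domains without H3K27me3 in CPI-0209 lay outside it, 1 of 60.8 kb at FARP1 and 1 of 121.4 kb at FRMD4A.

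**Figure D1:**
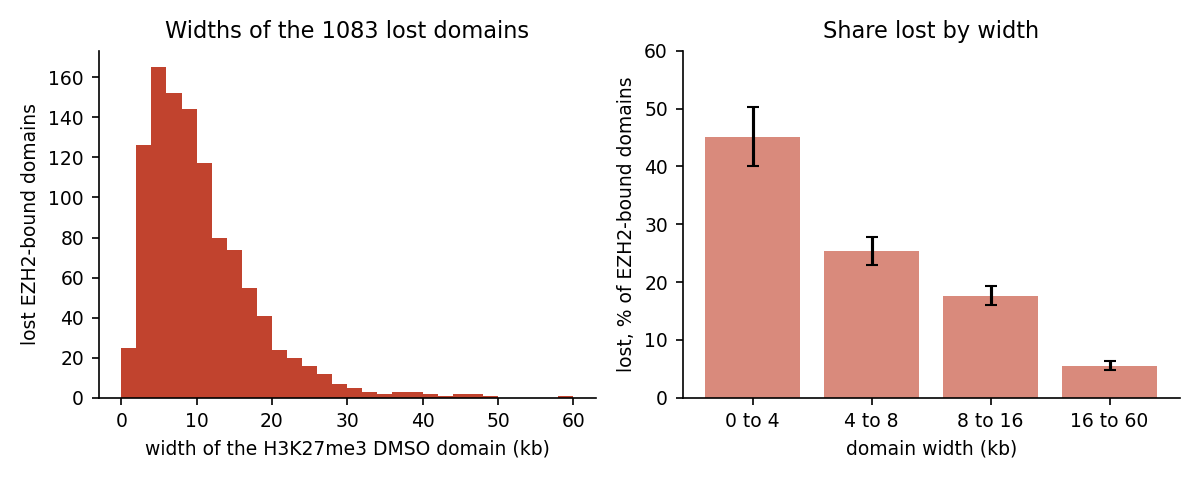
Left, number of lost EZH2-bound domains by width in 2 kb steps. Right, lost domains as a percent of all EZH2-bound H3K27me3 DMSO domains under 60 kb in 4 width classes, with exact 95% binomial limits, from 45.1% in the narrowest to 5.48% in the widest class.

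Many lost domains had an EZH2 call in CPI-0209 cells although H3K27me3 was not called there. The EZH2 CPI-0209 library, which the rule did not use, had a call in 802 of the 1083 (74.1%, 71.3 to 76.6), against a background of 53.1% of all H3K27me3 DMSO domains. The share was 98.1% (97.6 to 98.5) of domains kept in 1 piece, 99.9% of those broken into pieces and 20.1% (19.4 to 20.8) of lost domains without EZH2. The 53.1% background includes domains without EZH2 in DMSO, which all of the 1083 had by choice, so a share above it partly follows from the selection. Of all EZH2 DMSO domains, 12.5% had no EZH2 domain in CPI-0209. EZH2 over at least 50% of the domain was present in CPI-0209 in 38.3% (35.4 to 41.3) of lost domains, 71.8% (70.4 to 73.2) of those kept in 1 piece and 84.9% (83.4 to 86.4) of broken ones. The gap in calls between lost and kept domains was present in each of 4 width classes. With EZH2 in CPI-0209 were 75.9% of lost and 100% of kept domains up to 4 kb, and 68.3% and 98.3% at 4 to 8 kb. The shares were 75.4% and 97.0% at 8 to 16 kb, and 79.3% and 98.9% at 16 to 60 kb. In none of the 4 classes did the limits of lost and kept domains overlap. EZH2 in DMSO also covered less of the lost domains in each class, as at 4 to 8 kb with 60.1% of the length against 77.1%. The shares were not split by this cover.

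**Figure D2:**
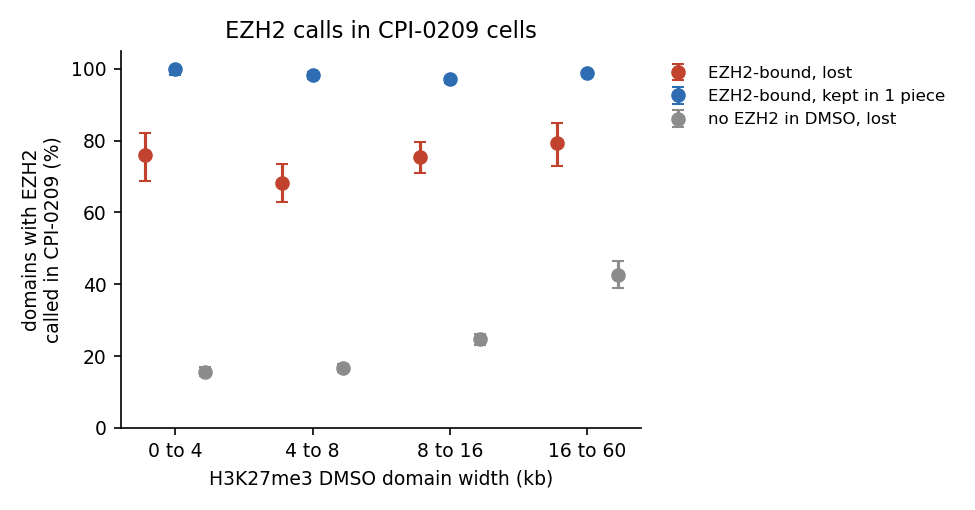
Percent of H3K27me3 DMSO domains with an EZH2 call in CPI-0209 by width class, for EZH2-bound lost, EZH2-bound kept in 1 piece and lost domains without EZH2 in DMSO; bars are exact 95% binomial limits. Lost EZH2-bound domains sit between the other groups in every class, from 68.3% to 79.3%.

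The length under EZH2 differed in the same order. EZH2 covered 34.4% of the length of lost domains in CPI-0209 and 46.4% in DMSO. For domains kept in 1 piece the values were 62.7% in CPI-0209 and 62.5% in DMSO, and for broken domains 74.4% in CPI-0209 and 67.6% in DMSO. Of the EZH2 DMSO length inside lost domains, 54.1% was also EZH2 in CPI-0209, against 84.0% in domains kept in 1 piece and 89.6% in broken ones. Of the remaining length, without EZH2 in DMSO, CPI-0209 cells had EZH2 over 17.4% in lost domains, 27.3% in domains kept in 1 piece and 42.7% in broken ones. All of these domains were chosen for an EZH2 call in DMSO, so the DMSO values are high by choice. The EZH2 list as a whole was larger in CPI-0209, with 27327 merged domains over 226 Mb, against 18637 over 193 Mb in DMSO. Domain by domain, EZH2 length was greater in CPI-0209 at 326 lost domains (30.1%), less at 687 (63.4%) and equal at 70 (6.46%). Of domains kept in 1 piece, 41.5% had a greater EZH2 length in CPI-0209, 48.1% a lesser and 10.4% an equal one, so a lesser length was the commoner direction in both.

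EZH2 was called more often over the middle of these domains than at their edges. It was called over the middle 10% of 49.1% of lost domains in CPI-0209 and 67.9% in DMSO, and over the outermost 5% inside the edges of 24.1% in CPI-0209 and 33.2% in DMSO. Domains kept in 1 piece had EZH2 over the middle 10% in 83.0% of cases in CPI-0209 and 85.1% in DMSO. Over the outermost 5% inside their edges the shares were 33.4% and 34.4%. Broken domains had 79.8% in CPI-0209 and 77.0% in DMSO over the middle, and 48.0% and 38.1% at the edges. The higher share in the middle was therefore not particular to lost domains. In DMSO the EZH2 domains lay wholly within 590 lost domains (54.5%, 51.5 to 57.5), crossed an edge of 394 (36.4%, 33.5 to 39.3) and spanned 99 (9.14%, 7.49 to 11.0). For domains kept in 1 piece these shares were 61.5%, 26.9% and 11.7%. In the 99 spanned domains EZH2 was called in CPI-0209 in 83.8% (75.1 to 90.5), in those with EZH2 wholly inside in 74.4% (70.7 to 77.9), and in those crossed at an edge in 71.1% (66.3 to 75.5), with overlapping limits.

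**Figure D3:**
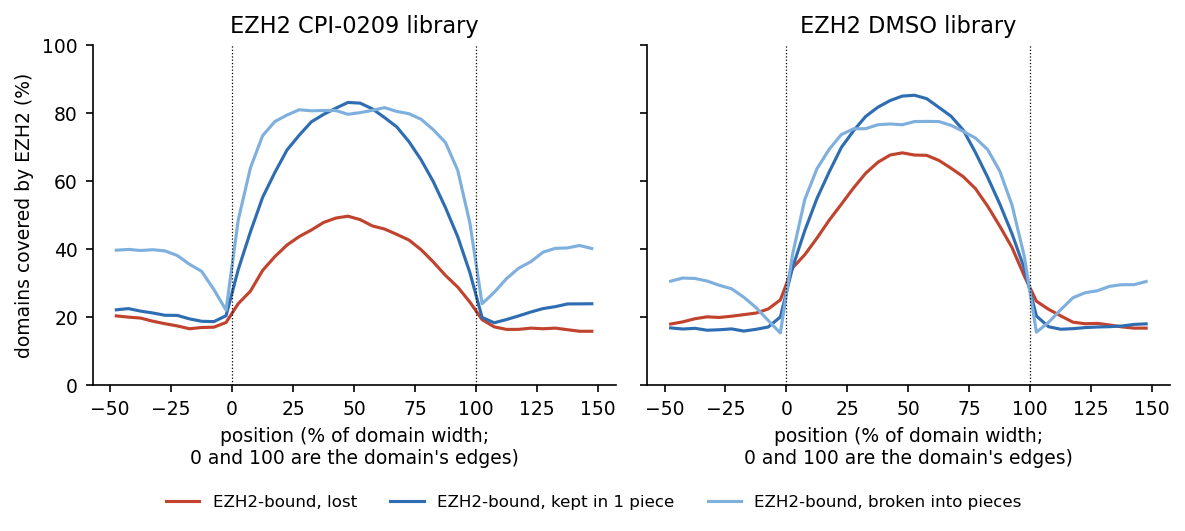
Percent of domains covered by EZH2 along H3K27me3 DMSO domains scaled to the same width, with flanks of 50% of the width, in the CPI-0209 library (left) and the DMSO library (right). In the middle 10% the lost domains reach 49.1% in CPI-0209 and 67.9% in DMSO, below the domains kept in 1 piece in both.

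Seen from EZH2, 1096 merged EZH2 DMSO domains touched a lost domain, and 238 of them (21.7%, 19.3 to 24.3) had no EZH2 domain in CPI-0209. The background over all 18637 EZH2 DMSO domains was 12.5%. It was 2.25% (1.93 to 2.61) for the 7735 that touched a kept but no lost domain, and 24.3% (23.4 to 25.3) for the 7799 that touched no H3K27me3 DMSO domain at all. The EZH2 DMSO domains at lost domains had a median width of 5.3 kb, against 8.6 kb for those touching a kept and no lost domain, 4.2 kb for those touching no H3K27me3 DMSO domain and 6.6 kb for all. The lists hold overlapping intervals, and a stretch under 2 of them occurred for EZH2 DMSO in 107 lost domains (9.88%, 8.17 to 11.8), against 24.9% (23.5 to 26.2) of domains kept in 1 piece. What such a stretch stands for is not stated in the sources used here. In 101 of these 107 domains (94.4%, 88.2 to 97.9) EZH2 was called in CPI-0209, against 71.8% (68.9 to 74.6) of the other lost domains.

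Lost domains lay at all distances from the H3K27me3 that was called in CPI-0209. The nearest H3K27me3 CPI-0209 domain was at a median of 32.6 kb (middle 50% of domains, 9.4 to 119 kb). It lay within 5 kb of 169 lost domains (15.6%, 13.5 to 17.9), within 50 kb of 625 (57.7%, 54.7 to 60.7) and at 500 kb or more from 92 (8.49%, 6.9 to 10.3). For lost domains without EZH2 the median was 41.4 kb, with 7.69% (7.21 to 8.19) within 5 kb, 54.6% (53.6 to 55.5) within 50 kb and 7.75% at 500 kb or more, so the shares within 50 kb had overlapping limits. The share of lost EZH2-bound domains within 50 kb was 39.6% when gaps under 5 kb were joined. At 93 lost domains (8.59%) the EZH2 DMSO domain itself reached into H3K27me3 that was called in CPI-0209. The 92 most isolated domains had a median width of 5.7 kb, EZH2 in CPI-0209 in 81.5% (72.1 to 88.9) and a protein-coding gene start within 2 kb in 41.3%. Lost domains within 5 kb of remaining H3K27me3 had a start in 15.4%. Most lost domains (897) stood alone, and 186 lay in 88 runs of members less than 50 kb apart, with at most 3 to a run. By chromosome, the lost share of EZH2-bound domains ran from 9.81% (6.18 to 14.6) on chromosome 22 to 20.2% (15.1 to 26.1) on chromosome 18, the extremes of 23 chromosomes.

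Gene starts were read from the RefSeq promoter table, which gives a strand and 1 or more starts for 15812 of 19974 protein-coding genes. No gene with a table start at a lost domain lay on chromosome 8, which holds 48 lost domains. HEY1, PENK and PLAG1 there had an end of their record near a lost domain but no entry. Shares with a start may therefore be too low. A protein-coding start lay within 2 kb of 230 lost domains (21.2%, 18.8 to 23.8), against a background of 17.9% of all H3K27me3 DMSO domains, 35.7% (34.3 to 37.2) of domains kept in 1 piece, 35.5% (33.5 to 37.5) of broken ones and 6.08% (5.66 to 6.53) of lost ones without EZH2. The share for lost domains was 56.1% when EZH2-bound meant a stretch under 2 EZH2 DMSO intervals, and 11.7% when stretches under 2 H3K27me3 DMSO intervals were taken as the domains. In the width class of 4 to 8 kb the shares were 24% (19.5 to 29.02) of lost domains (78 of 325) and 425 of 944 (41.8 to 48.3%) of those kept in 1 piece, and at 8 to 16 kb 16.2% (12.7 to 20.2) and 33.0% (30.7 to 35.3). Up to 4 kb the limits overlapped, at 32.9% (25.9 to 40.6) and 40.6% (33.8 to 47.6). Lost domains overlapped a protein-coding gene record in 48.4% of cases (45.4 to 51.4) and no gene record of any kind in 29.5% (26.8 to 32.3). For domains kept in 1 piece these shares were 64.8% and 16.4%.

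A larger share of the lost domains with a start than of those without had an EZH2 call in CPI-0209. EZH2 was called in CPI-0209 in 206 of the 230 domains with a start within 2 kb (89.6%, 84.9 to 93.2), against 596 of 853 others (69.9%, 66.7 to 72.9). Counted the other way, 24 of the 281 lost domains without EZH2 in CPI-0209 had a start nearby (8.54%), against 206 of the 802 with EZH2 (25.7%). Domains with and without a start also differed in other ways. A stretch under 2 EZH2 DMSO intervals occurred in 26.1% of those with a start and 5.51% of the others. Median widths were 6.8 and 9.2 kb, while EZH2 in DMSO covered 45.2% and 46.6% of the length. The shares with and without a start were not split by any of these. At the starts themselves, 162 of the 200 inside lost domains (81.0%, 74.9 to 86.2) lay under EZH2 in CPI-0209 and 169 (84.5%, 78.7 to 89.2) in DMSO, while EZH2 covered 34.4% of the length of these domains in CPI-0209 and 46.4% in DMSO. Inside domains kept in 1 piece, 96.0% of 1809 starts lay under EZH2 in CPI-0209 and 94.0% in DMSO.

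Starts with and without an EZH2 call differed in CpG content. Promoters (300 bases, 250 before and 50 after the start) inside lost domains had a median observed over expected CpG of 0.673 (middle 50%, 0.351 to 0.842) and a median G+C content of 61.3%. Promoters in domains kept in 1 piece had 0.745 and 66.7%, in broken domains 0.606 and 63.3%, and in lost domains without EZH2 0.310 and 53%. All 22132 protein-coding promoters of the table had 0.738 and 62.3%. A ratio of 0.6 or more was reached by 119 of 200 promoters in lost domains (59.5%, 52.3 to 66.4), 67.7% (65.5 to 69.9) in domains kept in 1 piece, 50.6% (47.5 to 53.6) in broken ones and 24.8% (21.4 to 28.4) in lost domains without EZH2. Over all protein-coding promoters the share was 62.2%, which lies inside the limits for lost domains. Within the lost domains, the 162 starts under EZH2 in CPI-0209 had a median ratio of 0.736 and 69.8% (62.1 to 76.7) at 0.6 or more, against 0.216 and 15.8% (6.02 to 31.3) for the 38 starts without. The split by EZH2 in DMSO was similar. The 169 starts under EZH2 in DMSO had a median ratio of 0.719 and 66.9% (59.2 to 73.9) at 0.6 or more. The 31 starts without it had 0.230 and 19.4% (7.45 to 37.5). A gene with several starts is counted once for each, and such starts share sequence.

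Short promoter motifs were counted on both strands of the same 300 bases. The GC box GGGCGG was present in 50.5% of promoters in lost domains, 65.1% in domains kept in 1 piece, 28.3% in lost domains without EZH2 and 56.3% of all protein-coding promoters. The CCAAT box, searched as CCAAT, was present in 28% of promoters in lost domains, 26.1% in domains kept in 1 piece, 35.3% in lost domains without EZH2 and 34.6% of all. The TATA box, searched as TATAAA, was present in 11.5%, 8.02%, 13.03% and 9.46% of the same sets in the same order. Of the printed promoters, those of ADGRB3, CNKSR2 and TLCD4-RWDD3 hold a GC box, CYP4F11, FCRLA and INHBA a CCAAT box, and INHBA alone a TATA box. A match only says that these letters occur in the window.

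**Figure D4:**
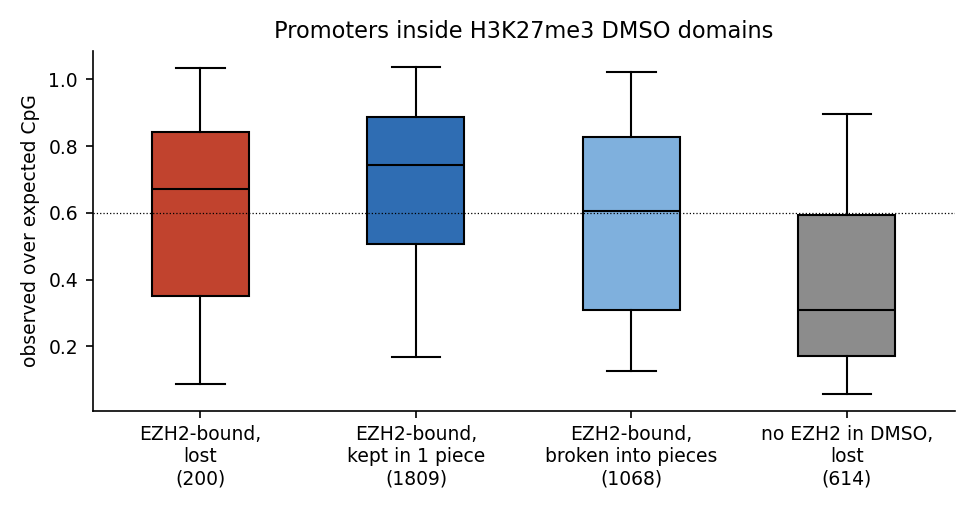
Observed over expected CpG of the 300-base promoters whose start lies inside an H3K27me3 DMSO domain, by class of domain, with the number of promoters in brackets. Boxes show the middle 50% with the median, whiskers the 5th and 95th percentiles, and the dotted line 0.6; the medians are 0.673 in lost EZH2-bound domains and 0.310 in lost domains without EZH2.

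In all, 253 protein-coding genes had a start within 2 kb of a lost domain, 1.6% of those with a start in the table, and 163 had a start inside one. At 238 of the 253 (94.1%), H3K27me3 was not called in CPI-0209 within 2 kb of any of their starts. The other 15 had such a call within 2 kb of at least 1 start. The share of 94.1% follows largely from the rule, which took only domains without H3K27me3 in CPI-0209. Another 75 genes without an entry in the promoter table had an end of their record within 2 kb of a lost domain, so the count of 253 may be incomplete. Across the gene lists, the share at lost domains is read against 1.6%, and the share at kept EZH2-bound domains, under 60 kb and in 1 or more pieces, against 15.2% of all genes. For a count of 0, the share said to be allowed is 3 divided by the number of genes with a table start. It is an approximate upper limit, not an exact binomial one.

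Of 134 developmental transcription factors with a table start, 5 (3.73%) had one within 2 kb of a lost domain, against 1.6% of all genes, and 91 (67.9%) had one at a kept domain, against 15.2%. SOX3, a neural and pituitary regulator (chromosome X, first base 140505069, minus strand), lay inside a 9.8 kb H3K27me3 DMSO domain with no H3K27me3 call in CPI-0209 and with EZH2 over 5.6 kb in CPI-0209 and 7 kb in DMSO. TFAP2D, an AP-2 family factor, started in a 4 kb domain with EZH2 over 2 kb in CPI-0209 and 1.8 kb in DMSO, and its start itself lay outside both EZH2 calls. NR2F1, a nuclear receptor of neural development, sat on a 1.8 kb domain under EZH2 over its whole length in both libraries. The nearest H3K27me3 CPI-0209 domain was 0.8 kb away, so NR2F1 still had H3K27me3 called in CPI-0209 within 2 kb of a start. RUNX1, a blood cell regulator, had 1 of its starts 1.7 kb outside a 3.6 kb domain with EZH2 over 1.8 kb in CPI-0209 and 2.6 kb in DMSO. The HOX genes had 0 of 20 with a table start at a lost domain (0 of 20 allows up to 15.0%) and 5 at a kept one.

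GRHL3, an epithelial differentiation factor that is active in urothelium, was the only one of 18 urothelial luminal genes with a table start at a lost domain, and 4 were at a kept one. Its 10.4 kb H3K27me3 DMSO domain (chromosome 1, 24320401 to 24330800) covers an internal start at 24323040, and the first start at 24319357 lies 1.04 kb outside it. EZH2 covered the whole domain in CPI-0209, 10.4 kb, and 4.2 kb of it in DMSO. The nearest H3K27me3 in CPI-0209 was 58.2 kb away. Among basal and squamous keratinocyte genes 0 of 37 with a table start qualified (0 of 37 allows up to 8.11%), but the whole record of KRT6A, a stress-induced keratin without an entry in the table, lay in a 7.8 kb lost domain with EZH2 over 4.4 kb in CPI-0209 and 3.6 kb in DMSO.

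The receptor and channel subunit genes GRIN2B, GRIN3A, GABRE, KCND2, KCNE5 and HTR3B had lost domains of 4 to 18.6 kb. The median over the 230 lost domains with a start was 6.8 kb. GABA and glutamate receptor genes gave 3 of 32 (9.38%) at lost and 9 (28.1%) at kept domains. GRIN2B, an NMDA receptor subunit, has 3 table starts inside a 5.2 kb domain with EZH2 over 3.2 kb in CPI-0209 and 3 kb in DMSO. GRIN3A, another NMDA subunit, had a 4.8 kb domain with EZH2 over 1.8 kb in CPI-0209 and 3.6 kb in DMSO. GABRE, a GABA receptor subunit on the X chromosome, had a 6.8 kb domain with 4.2 kb in CPI-0209 and 3.4 kb in DMSO. At all 3 genes the starts lay under EZH2 in both libraries and the nearest remaining H3K27me3 was 248.2 kb (GRIN3A) to 793.4 kb (GABRE) away. Potassium channel genes gave 2 of 61 (3.28%) at lost and 30 (49.2%) at kept domains. KCND2, a voltage-gated channel of neurons and heart, had a 4 kb domain with EZH2 over 3.4 kb in CPI-0209 and 2.6 kb in DMSO. KCNE5, an accessory subunit, had 2.4 kb of EZH2 in CPI-0209 and 2.2 kb in DMSO in a 6.6 kb domain.

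G protein-coupled receptor genes gave 3 of 179 (1.68%) at lost domains, near the background of 1.6%. CHRM3, the muscarinic receptor that mediates contraction of the bladder wall, had a 2.8 kb domain that EZH2 covered entirely in CPI-0209 and over 1.8 kb in DMSO, with the start under EZH2 in CPI-0209 alone. ADGRB3 had EZH2 over 3.8 kb of a 5 kb domain in CPI-0209 and 3.6 kb in DMSO, at 1228.8 kb from the nearest remaining H3K27me3. HTR3B, a serotonin-gated channel subunit that the list's name pattern took in, had 8.2 kb of EZH2 in CPI-0209 and 5.2 kb in DMSO in an 18.6 kb domain. No gene of the neuronal and neuroendocrine list with a table start was at a lost domain (0 of 39 allows up to 7.69%), and 23 were at kept ones. CHGB, a secretory granule protein without an entry, had an end in a 14.4 kb lost domain with EZH2 over 3.4 kb in CPI-0209 and 4.8 kb in DMSO.

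The adhesion genes included part of the gamma protocadherin cluster on chromosome 5. Protocadherin and cadherin genes gave 5 of 73 (6.85%) at lost and 26 (35.6%) at kept domains. PCDHGB3 and PCDHGA6 started in an 8.2 kb domain (141370201 to 141378400) that EZH2 covered whole in DMSO and at 0 kb in CPI-0209. PCDHGA5 started in, and PCDHGB2 0.265 kb outside, a 6.6 kb domain with 4.6 kb of EZH2 in CPI-0209 and 3.2 kb in DMSO. These 4 genes share 2 domains and are not separate events. CDH8, a classical cadherin of the brain, had 1 of its 2 starts in a 1.8 kb domain that EZH2 covered whole in both libraries, 3083.2 kb from remaining H3K27me3. COL6A6, a collagen VI chain, was the 1 of 32 collagen genes, with EZH2 over 1.4 kb of its 5.6 kb domain in CPI-0209 and 4 kb in DMSO.

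Shares at lost domains were 1.32% for signalling genes and for solute carriers, 6.25% for muscle genes and 7.69% for cytochrome P450 genes. Each of these rests on 1 to 4 genes. INHBA was the 1 of 76 WNT, BMP, FGF, hedgehog and TGF-beta genes (1.32%), against 34 (44.7%) at kept domains, with 3.6 kb of EZH2 in CPI-0209 and 10 kb in DMSO in a 14 kb domain. Muscle genes gave 2 of 32 (6.25%), SMYD1, a muscle methyltransferase, with 4 kb of EZH2 in CPI-0209 and 2.6 kb in DMSO in 14.4 kb, and TNNT1, slow troponin T, with 2 kb in CPI-0209 and 0.4 kb in DMSO in 5.8 kb. Cytochrome P450 genes gave 3 of 39. CYP11A1, which starts steroid synthesis, had EZH2 over 3 kb of 4.6 kb in CPI-0209 and 4.4 kb in DMSO. CYP4F11 had 2.4 kb in CPI-0209 and 3.6 kb in DMSO of 4.2 kb, and CYP4X1 3.8 kb in CPI-0209 and 4.6 kb in DMSO of 7.2 kb. Of 302 solute carriers 4 qualified, with SLC39A8, a zinc and manganese importer, under 3.6 kb of EZH2 in CPI-0209 and 2.6 kb in DMSO in a 4 kb domain. SLC13A4, a sulfate transporter, had 4.4 kb in CPI-0209 and 3.6 kb in DMSO in 11.2 kb, and starts of SLC6A8 and SLC39A11 lay 0.93 kb and 1.51 kb outside a lost domain.

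The immune lists gave 1 gene with a table start, and at their sizes counts of 0 or 1 do not set them apart from the background of 1.6%. CXCL5, a neutrophil chemokine, was the 1 of 31 chemokine genes (3.23%), with EZH2 over 2.4 kb of 7.8 kb in CPI-0209 and 4 kb in DMSO, while 8 of the 31 lay at lost domains without EZH2, where 4.47% of all genes lay. Antigen presentation and interferon genes gave 0 of 45 (0 of 45 allows up to 6.67%) and interleukin genes 0 of 69 (0 of 69 allows up to 4.35%), although an end of MX2, an interferon-induced GTPase without an entry, lay in a 27 kb domain with EZH2 over 12 kb in CPI-0209 and 15.2 kb in DMSO. Receptor tyrosine kinase and ephrin genes gave 0 of 51 (0 of 51 allows up to 5.88%) and 25 at kept domains. PRC2 and H3K27 demethylase genes gave 0 of 13 at either kind (0 of 13 allows up to 23.1%). Mesenchymal genes gave 0 of 20 (0 of 20 allows up to 15.0%), and of cell cycle inhibitors and tumour suppressors DACT3, a WNT antagonist, was the 1 of 27. Its start lay 1.82 kb outside a 4.4 kb domain and had H3K27me3 in CPI-0209 within 2 kb.

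The following lists had no member with a table start at a lost EZH2-bound domain. Sodium and calcium channel genes gave 0 of 26 (0 of 26 allows up to 11.5%) and 12 at kept domains. TNF and TNF receptor genes gave 0 of 22 (allows up to 13.6%) and 7 at kept domains. Natural killer cell ligand genes gave 0 of 12 (up to 25%) and 4. Serpin genes gave 0 of 27 (up to 11.1%) and 2, and claudin genes 0 of 19 (up to 15.8%) and 2. Keratin genes gave 0 of 34 (up to 8.82%), cornified envelope genes 0 of 27 (up to 11.1%) and housekeeping genes 0 of 32 (up to 9.38%). At kept domains these gave 0, 0 and 1. Of genes without an entry, TNFSF8, SERPINF1 and KRT6A had an end of their record in a lost domain.

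Olfactory receptor and zinc finger genes stood near the background at lost domains and below it at kept ones. Olfactory receptors gave 4 of 312 (1.28%) at lost and 7 (2.24%) at kept domains. OR2Y1 started in a 28.6 kb domain with EZH2 over 13.8 kb in CPI-0209 and 14 kb in DMSO, OR7G1 in one of 26.8 kb with 3.8 kb in CPI-0209 and 5 kb in DMSO, and OR1N1 in one of 12.2 kb with 4 kb in CPI-0209 and 4.2 kb in DMSO. OR7A10 had 0 kb of EZH2 in CPI-0209 and 5.4 kb in DMSO in 9 kb. Zinc finger ZNF genes gave 7 of 405 (1.73%) at lost and 23 (5.68%) at kept domains. ZNF879 (15.4 kb), ZNF483 (15 kb) and ZNF90 (4.2 kb) started inside their domains, with 9, 7 and 3.6 kb of EZH2 in CPI-0209 and 4.2, 6.4 and 3.4 kb in DMSO. ZNF892, ZNF558 and ZNF229 started outside but within 2 kb, and so did ZNF277, the only member outside the naming rule. Of 60 ribosomal protein genes only RPL36A was near a lost domain, 1.21 kb from its edge.

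Of the 12 widest lost domains, 1 held protein-coding starts of the table. It measured 58.6 kb on chromosome 1 (161671001 to 161729600) and held those of FCRLA and FCRLB, with EZH2 over 15.4 kb in CPI-0209 and 13.8 kb in DMSO. The others overlapped PHACTR1 (49.6 kb), MEIG1 (46.6 kb), ABCD3 (46 kb), FSTL4 (44.4 kb and 38.8 kb), SIDT1 (42.2 kb) and DLGAP1 (41.8 kb), or no protein-coding gene (44, 40.6, 39.2 and 38 kb on chromosomes 10, 13, 9 and 20). EZH2 length was greater in CPI-0209 in 7 of the 12, as in the domain at MEIG1 with 22 kb in CPI-0209 and 10.8 kb in DMSO. It was less in 5, among them the wider 1 at FSTL4 with 9 kb in CPI-0209 and 21 kb in DMSO. The domain of 38 kb on chromosome 20 (51176001 to 51214000) was the most covered, with 25.4 kb in CPI-0209 and 22.8 kb in DMSO.

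**Figure D5:**
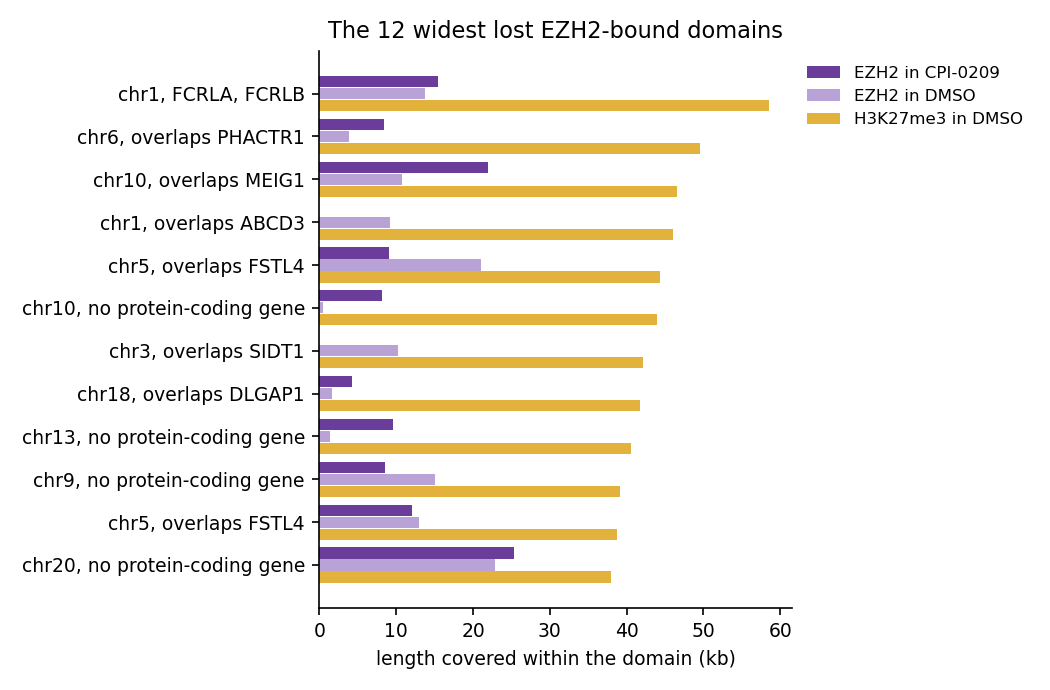
Length in kb covered by EZH2 in CPI-0209, EZH2 in DMSO and H3K27me3 in DMSO within each of the 12 widest lost EZH2-bound domains, named by chromosome and by the starts they hold or the genes they overlap. H3K27me3 in CPI-0209 is 0 kb in all 12 by the rule; EZH2 in CPI-0209 is also 0 kb at ABCD3 and SIDT1.

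Without EZH2 in CPI-0209, 281 lost domains had neither call left. Their median width was 8 kb, against 9.1 kb for the 802 with EZH2, and the share of their length under EZH2 in DMSO was 44.0%, against 47.1%. The widest were those at ABCD3, a peroxisomal transporter (46 kb, 9.2 kb of EZH2 in DMSO), and SIDT1 (42.2 kb, 10.2 kb), then a domain of 36.4 kb on chromosome 1 (200496001 to 200532400, 9.8 kb) and 1 at GAS7 (35.8 kb, 4 kb). AGXT2, a mitochondrial aminotransferase, started in the fifth, of 31 kb with 7.8 kb of EZH2 in DMSO and 0 kb in CPI-0209. The next lay on chromosome 8 (29.6 and 28.6 kb) and at RAB39A on chromosome 11 (24.6 kb). The domain of CREBZF and CCDC89, neighbouring genes on chromosome 11, also lacked EZH2 in CPI-0209 and had 3.6 kb of 12.6 kb in DMSO.

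Among domains with starts of 2 genes, LYSMD2 and TMOD2 shared a 13 kb domain with EZH2 over 4.8 kb in CPI-0209 and 7.8 kb in DMSO. TEAD2, a transcription factor of the Hippo pathway, and DKKL1 shared 5.6 kb, with 3.2 kb in CPI-0209 and the whole 5.6 kb in DMSO. CNKSR2 and LOC105373146 shared 3 kb on the X chromosome, with 2.8 kb in CPI-0209 and 1.8 kb in DMSO. TLCD4 and its readthrough TLCD4-RWDD3 had 10 kb of EZH2 in CPI-0209 and 1.8 kb in DMSO within 14.8 kb, the nearest remaining H3K27me3 being 1.6 kb away.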

How the data were processed

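HT1376 chromatin was profiled for EZH2 and H3K27me3, and the authors deposited 1 list of called intervals for each of 4 libraries. Per the file headers and columns, each list holds a chromosome, a start and an end and no other value. The submitters' processing notes name BWA, SICER and hg38, with no version, role or settings, and no source used here says whether the input served as control. All starts and widths were multiples of 200 bp. Coordinates are printed counting from 1.

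Intervals that overlapped or touched were merged within each list (Python 3.11.15, numpy 2.4.6, pandas 2.3.3, scipy 1.17.1), and 1 shared bp counted as overlap. The interval functions were tested on simulated data. A library sequenced less deeply can yield fewer and narrower calls. Gene starts and sequences came from RefSeq tables of GRCh38.p14, which are incomplete. The domains and the 32 gene lists were chosen with earlier results of these data known. Named domains were the 12 widest, the 8 with most protein-coding starts, the 8 widest without EZH2 in CPI-0209, the 6 widest without a gene start and the 6 nearest the width limit on either side. Named genes were those starting in them and up to 6 of each list, in the widest domains. Genes named by the ends of their records, and those named as such in the closing section, were chosen after their values were seen. No difference between conditions was tested. Alternatives were other definitions of a lost, EZH2-bound or near domain.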

Additional observations from a re-analysis of the deposited data

How the results depend on the processing

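No paired analysis was possible because each group has 1 library and no result comes from a test. The reported values are 1083 lost domains, 14.6% of EZH2-bound ones, EZH2 in CPI-0209 in 74.1% of them and over 34.4% of their length, a median width of 8.8 kb, a start within 2 kb of 21.2% and remaining H3K27me3 within 50 kb of 57.7%. Beside them, 31 values under other settings moved beyond the counting limits or by more than 1.5 times, and 29 did not. For EZH2 over the length, these limits treat a share of base pairs as a share of domains and do not describe its error. Joining gaps under 5 kb in every list gave 705 lost domains with EZH2 over 28.4% of the length, a median of 10 kb, a start at 26.95% and remaining H3K27me3 within 50 kb of 39.6%. Calling lost only domains with no H3K27me3 in CPI-0209 within 5 kb gave 12.3% lost and 49.9% within 50 kb. Allowing H3K27me3 over under 10% of the length gave 16.0% lost, a median of 9.6 kb and 61.5% within 50 kb. Requiring EZH2 in DMSO over at least 50% of the length gave 599 lost domains, 11.4% lost, EZH2 over 45.1% of the length, a median of 7 kb and 51.8% within 50 kb. With stretches under 2 EZH2 DMSO intervals as the EZH2 domains, 107 were lost (5.90%), with EZH2 in CPI-0209 in 94.4% and over 48.1% of the length, a median of 6.4 kb, a start at 56.1% and 41.1% within 50 kb. With stretches under 2 H3K27me3 DMSO intervals as the domains, EZH2 covered 51.8% of the length, the median was 5 kb, 11.7% had a start and 76.2% lay within 50 kb. A limit of 30 kb gave 17.7% lost. A start window of 1 kb gave 18.7% and of 5 kb 26.1%. EZH2 over at least 50% of the domain in CPI-0209 was present in 38.3%, and 39.1% had remaining H3K27me3 within 20 kb. Leaving touching intervals apart, which was chosen after seeing the data, moved no value. The cause was not tested for any of these. Without read counts, a mark that fell below the calling threshold and a mark that was absent cannot be told apart.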

Other observations

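Noncoding genes were counted at lost and at kept EZH2-bound domains under 60 kb. Of 443 tRNA genes 8 (1.81%) lay at lost and 75 (16.9%) at kept domains, and of 1911 miRNA genes 6 (0.314%) lay at lost and 196 (10.3%) at kept ones. The 6 were MIR12135, MIR4430, MIR4446, MIR4497, MIR548AA2 and MIR548D2, at 5 domains. Of 18177 lncRNA genes 288 (1.58%) lay at lost domains and 13.2% at kept ones. Of 1196 snoRNA genes 3 (0.251%) lay at lost and 40 (3.34%) at kept domains. Of 15212 pseudogenes 146 (0.96%) lay at lost and 914 (6.01%) at kept ones. For protein-coding genes the shares were 1.6% and 15.2%, but these were counted by table starts within 2 kb. The noncoding genes were not counted that way. The 288 lncRNA genes lay at 268 lost domains, while an lncRNA table start lay within 2 kb of only 115. The noncoding shares can therefore not be read against the protein-coding ones.

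Further developmental regulators outside the gene lists or the promoter table started at or ended near lost domains, and were chosen after their values were seen. POU3F4, a POU factor of the inner ear and brain, started in a 5.8 kb domain with EZH2 over 3.8 kb in CPI-0209 and over 3.8 kb in DMSO. LMO3, a LIM-only cofactor, started in a 7.6 kb domain with 2.2 kb of EZH2 in CPI-0209 and 2.4 kb in DMSO, 3037.2 kb from remaining H3K27me3. GCM1, a placental factor, started in a domain of the same width with 0 kb in CPI-0209 and 5 kb in DMSO. OVOL2, an epithelial zinc finger factor without an entry in the promoter table, had its upper end in an 8 kb domain with 5.6 kb in CPI-0209 and 4.4 kb in DMSO.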
